A study of Mus musculus with 6 samples.

Results

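The transcripts described here encode 10 cell-surface proteins through which the vessel wall holds itself together and catches leukocytes. They were taken from the deposited count table by gene name, and each name matched exactly 1 of its 57010 genes. Inducible adhesion molecules were Icam1, Vcam1, Sele and Selp, and constitutive junction or surface proteins were Icam2, Pecam1, Cdh5, Esam, Jam2 and Cd34. All 10 were among the 14799 genes tested.

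The cells were primary neonatal mouse cardiomyocytes (NMCMs), isolated from hearts of newborn C57BL/6 mice and separated from fibroblasts by their slower attachment to plastic. Every library came from cells under hypoxia (HO). The HO + Vehicle group (3 libraries, V1 to V3) and the HO + β-SITO group (3 libraries, T4 to T6) are called vehicle and β-SITO below. β-SITO is β-sitosterol, a plant sterol. The dose, the time of exposure and whether libraries came from separate cultures are not given in the sources used here, so p-values measure the spread between these libraries, which may be technical. No normoxic library was used here.

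In inflamed tissue, leukocytes first roll on selectins, then stop on immunoglobulin-type ligands of their integrins, such as ICAM-1 and VCAM-1, and finally pass between endothelial cells. Resting endothelium carries little E-selectin or VCAM-1, and inflammatory cytokines raise their transcription through NF-κB. VE-cadherin, PECAM-1, ESAM and JAM-B, by contrast, are standing components of the contact between endothelial cells, and ICAM-2 and CD34 lie on its surface without a stimulus. VCAM-1 and ICAM-1 are not confined to endothelium, since fibroblasts, epicardial cells and macrophages can also make one or both.

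Libraries held 16694734 to 18460522 counts. Of the tested genes, 22.8% were differentially expressed (DEGs, which had to differ over 2-fold with an adjusted p below 0.05 in edgeR's quasi-likelihood test). Cardiomyocyte markers were present in both groups. Myh6, a cardiac myosin heavy chain, had 1973 ± 278 counts per 1000000 (CPM) in the vehicle group and 2849 ± 715 CPM in the β-SITO group (SD, n = 3). Its libraries overlapped between the groups, and it was not a DEG. Markers of other cells were present too, among them the fibroblast collagen Col1a1 (9100 and 12200 CPM) and the endothelial receptor Kdr (16.8 and 88.7 CPM), so the libraries held RNA of several cell types. In such bulk RNA, fewer cells of a type and less RNA per cell cannot be told apart. Names of the β-SITO libraries carry a suffix that the others lack, so a batch, if there was one, and the treatment cannot be told apart.

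The inducible and the constitutive transcripts went in opposite directions, with Jam2 as the exception. All 4 inducible members were DEGs lower in the β-SITO group, against 10.1% of all tested genes, and their median log2 fold change was -5.23. Among the 6 constitutive members, 5 were DEGs higher, against 12.7% of all tested genes, and their median was 1.84. The median over all tested genes was -0.01. The adjusted p of each of the 10 members was below 0.05, as for 66.9% of all tested genes (33.9% lower and 33.0% higher). Libraries of the groups did not overlap for any of the 10, and for 70.5% of all tested genes (35.8% lower and 34.8% higher). Together the 4 inducible transcripts took 0.609% to 0.659% of all counts in the vehicle libraries and 0.0270% to 0.0305% in the β-SITO libraries, while the 6 constitutive ones took 0.0272% to 0.0305% and 0.0905% to 0.0965%.

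**Figure D1:**
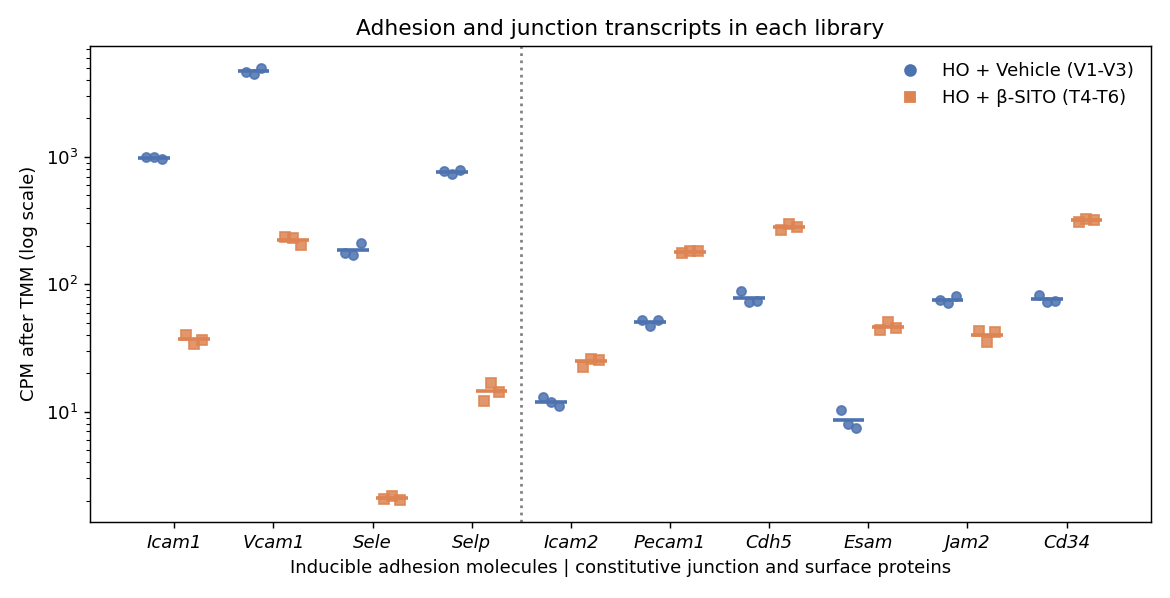
Level of each transcript in each library, as CPM after TMM normalization on a log axis, with circles for V1 to V3, squares for T4 to T6 and a bar for the mean of each group. The 4 inducible transcripts, left of the dotted line, sit lower in every β-SITO library, and all of the others but Jam2 sit higher.

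Selectins mediate the first, rolling contact. Sele encodes E-selectin, which endothelium makes after stimulation by cytokines. It lies on chromosome 1 from 163875773 to 163885246 (coordinates here are those of the deposited table, in GRCm39). V1, V2 and V3 held 175.5, 169.6 and 209.3 CPM of Sele, and T4, T5 and T6 held 2.06, 2.19 and 2.03 CPM. Every vehicle library was thus far above every β-SITO library, and the latter held only 40, 39 and 39 counts. The log2 fold change of Sele was -6.46 ± 0.11 (SE, n = 3 per group, edgeR's adjusted p = 4.57e-20), the largest decrease among the 10 members.

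Selp encodes P-selectin, which endothelial cells store in Weibel-Palade bodies and platelets in their granules. Its gene lies beyond Sele on the same strand, from 163942833 to 163977595. Selp had 777, 727.1 and 786 CPM in V1, V2 and V3 and 12.2, 16.9 and 14.3 CPM in T4, T5 and T6. It fell by 5.72 on the log2 scale (SE 0.096, n = 3 per group, edgeR's adjusted p = 1.69e-19). Within the vehicle libraries Sele stood at 0.342 to 0.403 of Selp in counts per kb of exon, and within the β-SITO libraries at 0.196 to 0.255, so the order of these selectins was the same in both groups.

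Icam1 and Vcam1 serve firm adhesion, as ligands of the leukocyte integrins LFA-1 and Mac-1 and of the integrin VLA-4. Icam1 lies on chromosome 9 from 20927281 to 20940113. It had 1004, 997 and 962 CPM in V1, V2 and V3 and 40.3, 34.3 and 36.3 CPM in T4, T5 and T6. Its log2 fold change was -4.74 ± 0.075 (SE, n = 3 per group, edgeR's adjusted p = 2.78e-21).

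Vcam1 lies on the minus strand of chromosome 3 from 115903598 to 115923337 and was the most abundant member in the vehicle group. V1, V2 and V3 held 4594, 4476 and 5019 CPM of Vcam1, and T4, T5 and T6 held 235.0, 228.8 and 204.4 CPM. This 1 gene accounted for 0.428% to 0.474% of all counts in the vehicle libraries and for 0.0215% to 0.0248% in the β-SITO libraries. Vcam1 fell by 4.40 on the log2 scale (SE 0.079, n = 3 per group, edgeR's adjusted p = 1.64e-20), the smallest decrease of the 4. Each of the 4 fell by more than 16-fold, as did 2.0% of all tested genes.

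Promoter sequences are shown for the members found in RefSeq's table for mouse build GRCm38.p6, which held Icam1, Sele and Selp, all of which fell, and Cd34, which rose. Each runs from 250 bases before to 50 bases after an annotated start, 5′ to 3′ on the plus strand. Capitals mark matches, on either strand, to a κB-type motif (GGNNNTTCC), an AP-1 motif (TGANTCA), the core of the interferon-stimulated response element (GAAA, any 2 bases and GAAA) and a TATA box (TATAAA). No matches overlapped each other, and the motif letters were chosen with the sequences known.
Icam1 (chr9:21015690-21015989): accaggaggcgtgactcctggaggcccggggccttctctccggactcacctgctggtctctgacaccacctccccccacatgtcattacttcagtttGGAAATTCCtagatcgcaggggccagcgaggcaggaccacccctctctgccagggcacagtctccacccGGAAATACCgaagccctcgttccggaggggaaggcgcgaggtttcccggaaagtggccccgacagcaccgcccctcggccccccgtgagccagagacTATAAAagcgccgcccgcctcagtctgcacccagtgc
Sele (chr1:164047984-164048283): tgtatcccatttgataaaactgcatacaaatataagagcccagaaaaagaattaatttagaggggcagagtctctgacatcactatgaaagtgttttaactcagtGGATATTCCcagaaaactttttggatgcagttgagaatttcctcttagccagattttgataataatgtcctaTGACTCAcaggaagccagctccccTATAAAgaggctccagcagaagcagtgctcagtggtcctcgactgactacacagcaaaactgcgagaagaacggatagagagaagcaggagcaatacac
Selp (chr1:164115014-164115313): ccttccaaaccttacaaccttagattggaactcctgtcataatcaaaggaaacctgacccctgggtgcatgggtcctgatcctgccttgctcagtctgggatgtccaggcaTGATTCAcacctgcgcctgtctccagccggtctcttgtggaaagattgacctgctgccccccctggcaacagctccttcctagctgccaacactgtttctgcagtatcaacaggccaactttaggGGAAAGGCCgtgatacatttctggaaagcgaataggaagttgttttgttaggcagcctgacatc
Cd34 (chr1:194938571-194938870): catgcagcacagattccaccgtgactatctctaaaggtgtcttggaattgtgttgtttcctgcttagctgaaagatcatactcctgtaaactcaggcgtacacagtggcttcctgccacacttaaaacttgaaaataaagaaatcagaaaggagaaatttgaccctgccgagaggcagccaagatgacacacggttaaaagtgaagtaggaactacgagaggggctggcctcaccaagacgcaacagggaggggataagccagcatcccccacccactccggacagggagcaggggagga

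The κB-type letters occurred in the windows of Icam1, Sele and Selp. In Icam1 they stood 153 bases before the start as GGAAATTCC, which matches the motif on both strands, and 84 bases before it as GGAAATACC. Sele held GGATATTCC 145 bases before its start, an AP-1 match 73 bases before it and a TATA box 49 bases before it. Selp held GGAAAGGCC 14 bases before its start and an AP-1 match 139 bases before it, and Icam1 a TATA box that began at base 14 after the start. The Cd34 window matched none of the 4 motifs. Of 32851 mouse promoters of the same length, 18.5% held the κB-type letters, 7.81% the AP-1 letters, 3.44% the interferon-stimulated core and 13.6% the TATA box. Each motif thus occurs in many promoters, and a match describes only these letters.

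Of the constitutive members, which build or line the endothelial contact, all but Jam2 were higher in the β-SITO group. Cdh5 encodes VE-cadherin, the adhesive core of the endothelial adherens junction, and lies on chromosome 8 from 104828257 to 104871143. Cdh5 had 88.7, 73.2 and 73.4 CPM in V1, V2 and V3 and 264.6, 299.1 and 279.1 CPM in T4, T5 and T6. Its log2 fold change was 1.84 ± 0.076 (SE, n = 3 per group, edgeR's adjusted p = 1.33e-13), a 3.58-fold increase.

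Pecam1 encodes PECAM-1 (CD31), a homophilic contact protein of endothelium, platelets and leukocytes through which transmigrating cells pass, and lies on the minus strand of chromosome 11 from 106545043 to 106641454. It had 52.5, 47.1 and 52.1 CPM in V1, V2 and V3 and 176.2, 182.1 and 184.0 CPM in T4, T5 and T6. Its log2 fold change of 1.84 ± 0.063 (SE, n = 3 per group, edgeR's adjusted p = 5.46e-16) was close to that of Cdh5, and the ratio of Pecam1 to Cdh5 in counts per kb overlapped between the groups, with 0.399 to 0.479 in the vehicle libraries and 0.411 to 0.449 in the β-SITO libraries.

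Esam, which encodes an immunoglobulin-type protein of endothelial tight junctions, rose most among the members. It lies on chromosome 9 from 37439374 to 37449615 and had 10.2, 8.02 and 7.50 CPM in V1, V2 and V3 and 43.6, 50.6 and 45.1 CPM in T4, T5 and T6. The increase was 5.41-fold (log2 fold change 2.43 ± 0.10, SE, n = 3 per group, edgeR's adjusted p = 5.10e-14).

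Cd34 encodes a sialomucin of endothelial and progenitor cells that can present selectin ligands, and some cardiac fibroblasts carry it too. It lies on chromosome 1 from 194621127 to 194643587. It had 82.8, 72.1 and 73.6 CPM in V1, V2 and V3 and 307.8, 326.5 and 319.0 CPM in T4, T5 and T6, a 4.17-fold increase (log2 fold change 2.06 ± 0.065, SE, n = 3 per group, edgeR's adjusted p = 1.56e-16).

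Icam2, on the minus strand of chromosome 11 from 106268482 to 106278901, encodes the ICAM of resting endothelium, which binds the same integrin LFA-1 as ICAM-1. It had 13.1, 11.9 and 11.1 CPM in V1, V2 and V3 and 22.6, 26.1 and 25.7 CPM in T4, T5 and T6. At 1.04 ± 0.096 on the log2 scale (SE, n = 3 per group, edgeR's adjusted p = 6.54e-09) it passed the 2-fold limit narrowly, and it did not pass when tested against a 2-fold change (edgeR's glmTreat, adjusted p = 0.667). The ICAM genes thus changed places, since in counts per kb Icam1 was 33.5 to 37.9 times Icam2 in the vehicle libraries and 0.573 to 0.781 times Icam2 in the β-SITO libraries.

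Jam2 encodes JAM-B, which sits at endothelial contacts and is made by some stromal cells as well. It lies on chromosome 16 from 84571011 to 84622816 and was the 1 constitutive member that fell. V1, V2 and V3 held 75.0, 71.8 and 80.7 CPM, and T4, T5 and T6 held 43.3, 35.4 and 41.9 CPM. Its log2 fold change of -0.91 ± 0.077 (SE, n = 3 per group, edgeR's adjusted p = 1.92e-09) did not reach 2-fold, so Jam2 was not a DEG.

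**Figure D2:**
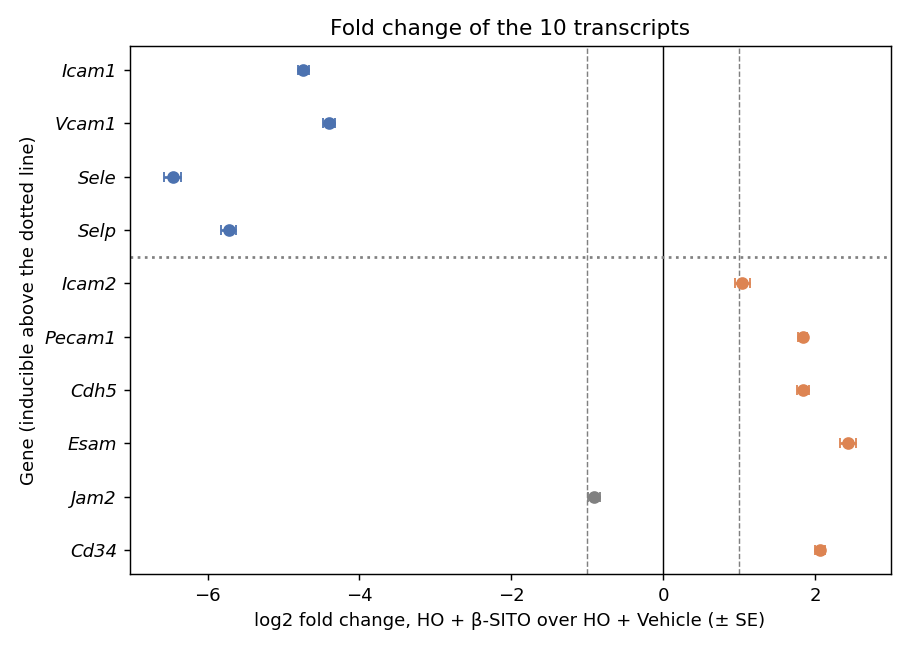
Log2 fold change of each transcript, β-SITO over vehicle, with bars for ± SE (n = 3 per group) and dashed lines at a 2-fold change in either direction. The inducible transcripts above the dotted line lie between -6.46 and -4.40, Jam2 lies at -0.91, and the other constitutive transcripts lie between 1.04 and 2.43.

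Levels between genes were compared per kb of exon. In the vehicle group the 4 inducible members came first, with Vcam1 at 529.5 ± 32.2 CPM per kb, Icam1 at 226.5 ± 5.17, Selp at 173.0 ± 7.23 and Sele at 63.5 ± 7.36 (SD, n = 3). Below them came Cdh5 (18.7 ± 2.11), Jam2 (12.6 ± 0.742), Cd34 (10.5 ± 0.795), Pecam1 (8.12 ± 0.477), Icam2 (6.32 ± 0.523) and Esam (2.995 ± 0.506 CPM per kb, SD, n = 3). By this level Vcam1 was at place 60 and Icam1 at place 191 among 14637 tested genes with a known length.

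In the β-SITO group the order began with Cdh5 (66.8 ± 4.12 CPM per kb), Cd34 (43.6 ± 1.29) and Pecam1 (29.0 ± 0.656, SD, n = 3). Vcam1, at 25.1 ± 1.82 CPM per kb, was the highest of the inducible members and came next, before Esam (16.2 ± 1.28), Icam2 (13.0 ± 1.02), Icam1 (8.48 ± 0.706), Jam2 (6.65 ± 0.698), Selp (3.28 ± 0.533) and Sele (0.719 ± 0.0299 CPM per kb, SD, n = 3). In both groups the libraries of neighbours in the order did not overlap. Sele went from place 846 to place 12493 among the 14637 genes, and Cdh5 from 2782 to 630.

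Ratios within a library do not depend on the scaling between libraries. Set against Cdh5 in counts per kb, Vcam1 stood at 24.6 to 32.4 in the vehicle libraries and at 0.347 to 0.421 in those of the β-SITO group. The same ratio for Icam1 was 10.9 to 13.1 against 0.111 to 0.147. Selp stood at 8.34 to 10.2 of Cdh5 against 0.0440 to 0.0539, and Sele at 2.86 to 4.12 against 0.0105 to 0.0112. Cd34 relative to Cdh5 differed far less, with 0.538 to 0.579 against 0.629 to 0.671, as did Esam with 0.150 to 0.169 against 0.237 to 0.248 and Icam2 with 0.326 to 0.359 against 0.188 to 0.203. For Jam2 the ratio was 0.588 to 0.765 against 0.0823 to 0.114. These pairs were chosen after the values were seen and are given as a description.

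**Figure D3:**
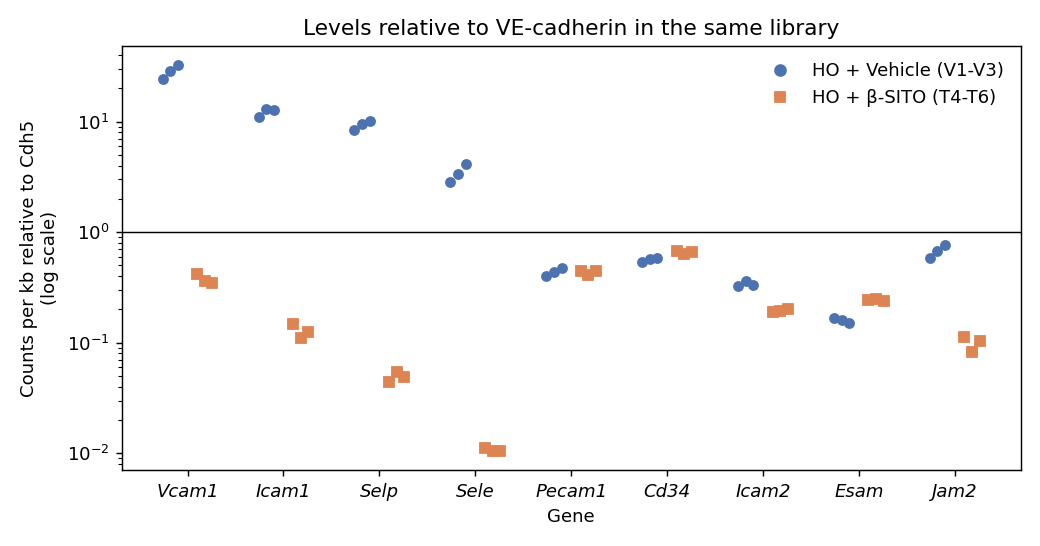
Counts per kb of each transcript divided by counts per kb of Cdh5 in the same library, on a log axis, with circles for V1 to V3 and squares for T4 to T6. Vcam1, Icam1, Selp and Sele lie above the line at 1 in every vehicle library and below it in every β-SITO library, while Pecam1 overlaps between the groups.

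Endothelial markers outside the 10 members moved with the constitutive members. Of 18 such markers, 15 were DEGs higher and 2 DEGs lower in the β-SITO group, and the median log2 fold change was 2.16. Vwf, which encodes von Willebrand factor, had a log2 fold change of 4.09 (edgeR's adjusted p = 8.46e-16), the adhesion receptor gene Adgrl4 of 3.48 and Nos3, the endothelial nitric oxide synthase, of 3.01. Flt1, the VEGF receptor 1, was lower by 2.36 on the log2 scale (532.7 against 103.7 CPM), and Ecscr was lower too (log2 fold change -1.65). Eng, the most abundant of the markers, had 535.5 against 408.9 CPM and was not a DEG.

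The summed level of all 18 markers was 1247 to 1373 CPM in the vehicle libraries and 1144 to 1174 CPM in the β-SITO libraries. Flt1, Eng and Ecscr made up 89.0% to 90.1% of that sum in the vehicle libraries and 45.8% to 48.0% in the β-SITO libraries, and the other 15 markers summed to 127.4 to 151.1 CPM and 610.1 to 623.4 CPM. Per 100 counts of the 18 markers, Vcam1 had 361.7 ± 28.5 counts in the vehicle group and 19.2 ± 1.15 in the β-SITO group, and Sele had 14.2 ± 1.85 and 0.180 ± 0.00701 (SD, n = 3). Cdh5 had 6.02 ± 0.390 against 24.2 ± 1.58 and Jam2 5.84 ± 0.419 against 3.47 ± 0.367 (SD, n = 3). For all 10 members this ratio differed between the groups without overlap (exact permutation test, two-sided, p = 0.1 for each and after Benjamini-Hochberg adjustment over the 10, the smallest that 3 libraries against 3 allow).

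Markers of other cells that can carry the members moved as well. Of 14 macrophage markers, 10 were DEGs higher and 3 DEGs lower, with a median of 1.45 and a summed level of 1351 to 1479 CPM in the vehicle libraries against 2846 to 3495 CPM in the β-SITO libraries. Mrc1, the mannose receptor, was higher by 4.79 on the log2 scale, and the Fc receptor gene Fcgr1 lower by 2.18. Among 12 fibroblast markers 2 were DEGs higher, Fap and Pi16, and none were lower (summed level 38630 to 41240 against 54590 to 56170 CPM). For 12 cardiomyocyte markers 2 were DEGs higher, Nppa and Myl7 (6099 to 7031 against 5592 to 9534 CPM), a count that was 4 without T4 and 1 without any other library. The part of these cells in the change of any member was not tested.

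Genes of the counter-receptors that leukocytes use for these molecules were less uniform. Which cells made these transcripts here was not tested. Of 15 tested counter-receptor genes 5 were DEGs lower and 0 higher, with a median of -0.36. Cd44, whose product can bind E-selectin, had a log2 fold change of -2.60, Itgal, the α chain of LFA-1, of -2.14, and Siglece, a sialic acid receptor of myeloid cells, of -4.04 (edgeR's adjusted p = 2.38e-15 or lower). Itgb1, the most abundant and the β chain of VLA-4, had a log2 fold change of -0.07 (adjusted p = 0.319). Other direct partners, named after their values were seen, were Itga4, the α chain of VLA-4, at 0.43, Itgb2, the β chain of LFA-1 and Mac-1, at 0.63, Itgam, the α chain of Mac-1, at 0.47, and Selplg, the P-selectin ligand PSGL-1, at 0.56. Each of these 4 rose with an adjusted p under 0.05 and did not reach 2-fold.

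Enzymes that build selectin ligands changed in both directions, with 2 of 12 tested genes DEGs lower (1 without T4 or without T6) and 1 higher (median -0.12). Gcnt1, a glycosyltransferase that makes the branched core of such ligands, rose by 1.31 on the log2 scale, and the galactosyltransferase gene B4galt1, the most abundant, had 0.34. Among 4 tested genes of CD34-like and other sialomucins, Podxl (2.79), Emcn (2.51) and Podxl2 (1.25) were DEGs higher and Cd164 (-0.88) was not a DEG.

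Of 28 other tested genes of junctions and transmigration, 8 were DEGs higher and 3 DEGs lower, with a median of 0.16. Plvap, which forms the diaphragms of endothelial pores, and Ptprb, the phosphatase VE-PTP that associates with VE-cadherin, each had a log2 fold change of 2.21, and Vsir had 1.91. Among genes of adherens junctions in other cells too, named after their values were seen, Vcl, which encodes vinculin, and Jup, which encodes plakoglobin, were DEGs higher at 1.68 and 1.39. Ctnnb1, which encodes β-catenin, had 0.22, Afdn, which encodes afadin, 0.73 and Cdh2, which encodes N-cadherin, -0.28, and none of these 3 was a DEG. Rap1b, a small GTPase and the gene with the highest level on the list, had -0.94.

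For proteins that anchor ICAM-1 and VCAM-1 in the docking structure beneath a leukocyte, 3 of 18 genes were DEGs higher, Arhgef26 (1.88), Ctnnal1 (1.67) and Cd9 (1.01), and none were lower (median 0.00). Arhgef26 encodes an exchange factor for RhoG and CD9 is a tetraspanin. Cd81, another tetraspanin and the gene with the highest level, had 0.06. Of 6 genes that govern shedding, Adam17, the main sheddase of many adhesion molecules, fell by 1.20 on the log2 scale and its partner Rhbdf2 by 1.23, while Adam8 rose by 1.76 and Timp3, an inhibitor of metalloproteinases, by 2.61 (median of the 6 -0.12).

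Weibel-Palade bodies carry both P-selectin and von Willebrand factor, and their transcripts went opposite ways. Vwf had 1.32 CPM in the vehicle group and 22.4 CPM in the β-SITO group, where Selp went from 763.5 to 14.5 CPM. Across 20 tested genes of this organelle and its exocytosis 5 were DEGs higher and 1 lower (median 0.07), among them Sytl2 (2.99), a Rab27 effector. Cd63, a tetraspanin cargo with the highest level of the list, had -0.70.

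Of 22 tested transcription factors of endothelium, 12 were DEGs higher and none lower, with a median of 1.07. Hey1, a target of Notch, had 3.50, Sox18 had 2.72 and Lyl1 had 2.19 (edgeR's adjusted p = 1.79e-10 or lower for each). Epas1, which encodes HIF-2α and had the highest level, had -0.96 and was not a DEG.

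**Figure D4:**
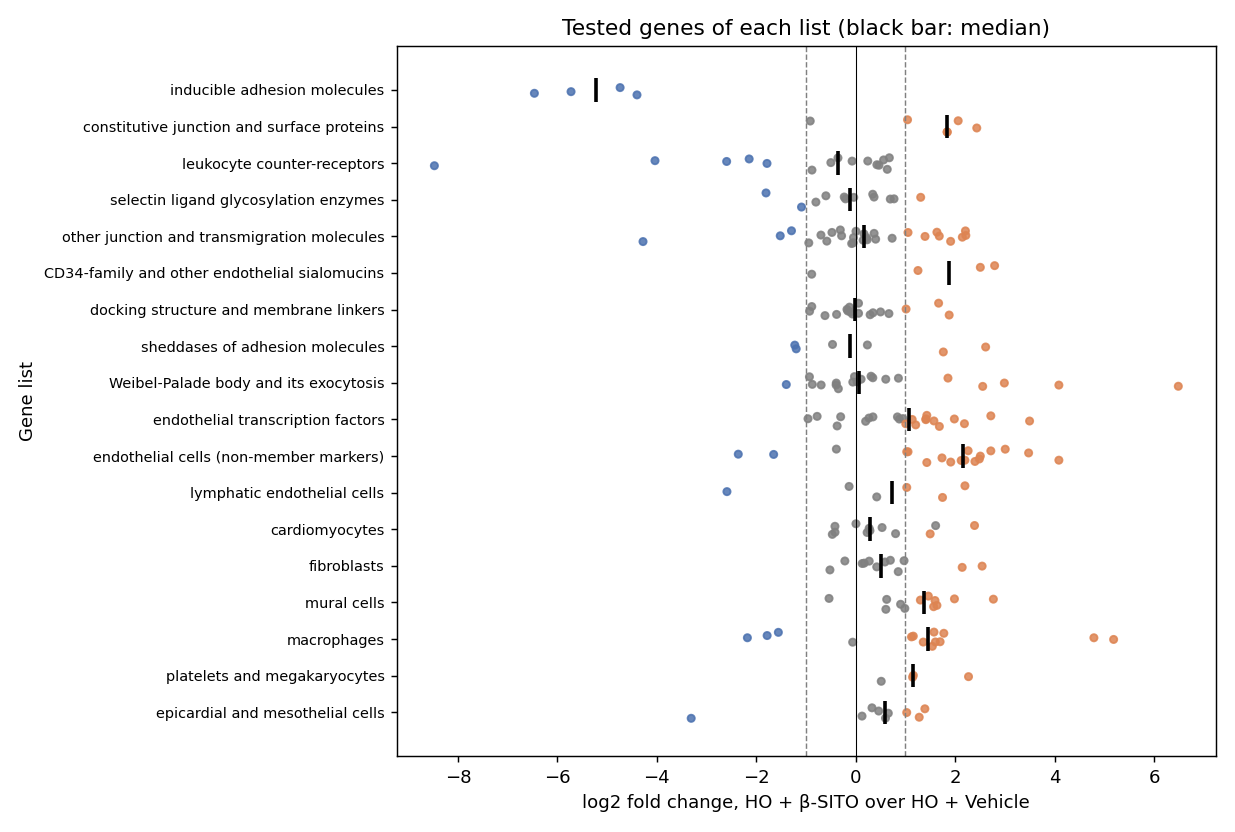
Log2 fold change of each tested gene of the member, pathway and marker lists (β-SITO over vehicle), with blue for DEGs lower, orange for DEGs higher, grey for other genes, black bars at the medians and dashed lines at 2-fold. The inducible members have a median of -5.23, the constitutive members 1.84 and the other endothelial markers 2.16. Points of genes with 0 counts in every library of a group, such as Myrip, are fitted values.

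Position on the chromosome was also compared. Sele and Selp lie 57587 bases apart. Also within 100 kb of Sele, Scyl3, Mettl18 and BC055324 had log2 fold changes of -0.08, 0.24 and 0.09, and their adjusted p was 0.302 or higher. Icam5, the neuronal ICAM gene that begins 3256 bases beyond Icam1, was a DEG lower at low counts (17, 24 and 13 against 10, 4 and 8), and Icam4 between them had 0 counts in every library. Mrpl4, 7146 bases from Icam1, had a log2 fold change of 0.01. On chromosome 11, Milr1 lay 598 bases from Pecam1 and fell by 1.35 on the log2 scale, in the opposite direction to Pecam1, and Ern1 lay 6575 bases from Icam2 and fell by 1.25. Neighbours that moved with their member were Bean1, 25931 bases from Cdh5, with a log2 fold change of 1.48, and Nrgn, 6173 bases from Esam, with 2.26. Mir155hg, the host gene of a microRNA 58878 bases from Jam2, was a DEG lower, like Jam2 itself in direction, at 11 to 42 counts in the vehicle libraries and 0 to 1 in the β-SITO libraries. Counting each once, 29 tested genes outside the members lay within 100 kb of a member, and 5 were DEGs lower and 2 DEGs higher. Among all tested genes, 10.1% were DEGs lower and 12.7% DEGs higher. Genes whose span overlaps a member had at most 17 counts in any library.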

How the data were processed

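Total RNA of 6 NMCM samples was sequenced as 150 bp paired-end reads. The authors aligned reads and counted them per gene (the submitters' processing notes name FastQC, HISAT2, featureCounts and GRCm39) and deposited raw counts without normalization, all 6 libraries in 1 table. Aligner options and strand setting are not given in the sources used here. The labels and the study's methods name different library kits.

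Samples were grouped by their titles. Genes were filtered with filterByExpr (14799 left), normalized with TMM (factors 0.946 to 0.957 and 1.05 to 1.06) and compared with edgeR 4.0.16 (quasi-likelihood test, robust, Benjamini-Hochberg over all tested genes). DEGs follow the study's threshold, over 2-fold with an adjusted p below 0.05. The SE of a log2 fold change was derived from the F statistic. CPM are counts per 1000000 of the TMM-scaled library. Exon lengths came from GENCODE vM21 by gene identifier (GRCm38), and gene coordinates from the deposited table. The test was checked on simulated data. Replicates differed by more than sampling noise (chi-square per degree of freedom 1.99 to 9.54), so none was counted as a duplicate.

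The members and lists were chosen with earlier results of these data known. Named genes were the 10 members and, of each list, up to 3 DEGs lower and 3 higher with the largest change among genes whose mean count reached 100, and the gene with the highest level per kb. All other genes were named after their values were seen, except neighbours on the chromosome. Some genes of the lists are counted but not reported by name here. Alternatives were DESeq2 1.42.0, limma-voom 3.58.1, glmTreat, no fold cutoff, other normalizations and filters, removal of mitochondrially encoded genes and of each library in turn.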

Additional observations from a re-analysis of the deposited data

How the results depend on the processing

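Each of the 4 inducible members was a DEG lower, and Cdh5, Pecam1, Esam and Cd34 were DEGs higher, under all 16 alternatives, and 0 of the 10 members changed direction. Icam2, with a log2 fold change of 1.04, was no longer called with glmTreat (adjusted p = 0.667), and Jam2, at -0.91, was called only without the fold cutoff, which gives 1 constitutive member lower. Without that cutoff 9895 genes were called in place of 3378, and 107 genes of the pathway lists in place of 47. Counts within a list moved as well, such as Weibel-Palade genes higher (3 in place of 5 with the stricter filter, which tests fewer genes), mural markers higher (4 in place of 7 with glmTreat) and fibroblast markers higher (4 in place of 2 with library size only). Upper quartile scaling and library size only moved the median of all genes by 0.14 and 0.15 on the log2 scale, and with it the median of the inducible members to -5.09 and -5.08 and that of the constitutive members to 1.98 and 1.99. Leaving out 1 library at a time, the median of the constitutive members was 1.79 to 1.92 and that of the inducible members -5.24 to -5.20. No paired analysis was possible because the groups share no replicate number. The β-SITO libraries held 39 to 40 counts of Sele, which limits the precision of its level there.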

Other observations

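Several marker lists that the comparison of the adhesion molecules did not use also differed between the groups. Of 12 mural cell markers, 7 were DEGs higher in the β-SITO group and none lower (median log2 fold change 1.38), among them the potassium channel gene Kcnj8 (1.99), Mcam (1.63) and Notch3 (1.59), and Acta2, smooth muscle actin, had 0.99. Of 6 tested markers of lymphatic endothelium, 3 were DEGs higher, with Lyve1 at 1.75 and Mmrn1 at 1.03, and Pdpn, which fibroblasts and mesothelium also carry, was lower by 2.59 on the log2 scale. Among 9 epicardial and mesothelial markers, 3 were DEGs higher, with Upk1b at 1.39 and Wt1 at 1.03, whereas Aldh1a2, the retinoic acid synthase and the most abundant of them, went from 841.8 to 84.95 CPM (log2 fold change -3.31).

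Blood cell markers were low. The summed platelet markers were 21.2 to 26.1 CPM in the vehicle libraries and 48.15 to 59.4 CPM in the β-SITO libraries, of which Pf4, which macrophages can also express, had 21.7 and 48.0 CPM, and 3 of 4 tested genes were DEGs higher. Of 8 neutrophil markers only Csf3r was tested, a DEG lower at -2.08, and Ly6g and Retnlg had 0 counts. Of 9 lymphocyte markers only Cd4 was tested, a DEG higher at 1.95 against 0.397 CPM, and Cd3e, Cd3d and Ncr1 had 0 counts. Madcam1, the addressin of mucosal vessels, was named after its values were seen: it had 37, 28 and 40 counts in V1, V2 and V3 and 5, 1 and 0 in T4, T5 and T6 (log2 fold change -4.28, edgeR's quasi-likelihood test, adjusted p = 1.85e-07).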
